A study of Mus musculus with 22 samples.

Results

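Nr4a1, Nr4a2 and Nr4a3 make up the NR4A group of nuclear receptors, and they were followed here in the dentate gyrus of mice that lacked or kept the transcription factor SRF in excitatory forebrain neurons. The members were every probe whose annotated symbol is one of these 3 genes, which gave 5 of 46237 probes and 3 of 21946 genes: 1 probe each for Nr4a1 and Nr4a2, and 3 for Nr4a3. Where a gene had several probes, the one with the highest mean signal over all arrays gave its main value. Control (CTR) mice were Srf f/f, with both Srf copies flanked by loxP sites, and knockout (KO) mice were their Srf f/f littermates that also carried the CaMKCreERT2 transgene. This transgene drives a tamoxifen-dependent Cre recombinase in excitatory forebrain neurons, so interneurons and glia of KO mice keep Srf. All animals were adult males that had received tamoxifen weeks earlier. They were then injected intraperitoneally with saline or with 35 to 50 mg/kg kainic acid (KA), which activates the kainate class of glutamate receptors, and KA-treated mice had seizures of severity 5 on a modified Racine scale. Dissected dentate gyrus was collected 6 h after such seizures, or 6 h after saline, and total RNA of each mouse was hybridized to its own Illumina MouseWG-6 v2.0 array. There were 6 CTR saline, 5 CTR KA, 6 KO saline and 5 KO KA arrays.

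NR4A proteins are orphan nuclear receptors: their ligand pocket is closed by bulky side chains, so that their activity is set mainly by how much protein is made rather than by a hormone. Their genes are immediate-early genes, switched on within minutes of neuronal activity through Ca2+ and cAMP signals that act on CREB and its CRTC coactivators, and through MEF2 factors. The proteins bind the NBRE, a DNA element, as monomers, and Nr4a1 and Nr4a2 also pair with retinoid X receptors. In the hippocampus they are known for their part in the transcription that follows learning, and Nr4a2 (Nurr1) is also needed for the development of midbrain dopamine neurons.

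The promoters are shown because Nr4a2 and Nr4a3 moved together in these mice, and because SRF, CREB and MEF2 each recognize a short DNA element. The 3 sequences are the 250 bases before the RefSeq start site on build GRCm38.p6, read 5′ to 3′ on the strand of the gene. Capitals mark CRE half-sites (TGACG, or CGTCA where it lies on the opposite strand), a match to the MEF2 site in Nr4a2, and in Nr4a1 a CArG-like element, the SRF site with 1 base other than A or T in its core. Nr4a1 lies on chromosome 15 (chr15:101266596-101266845, plus strand), Nr4a2 on chromosome 2 (chr2:57124004-57124253, minus strand) and Nr4a3 on chromosome 4 (chr4:48045055-48045304, plus strand). The window of Nr4a1 lies within the annotated gene span, which begins upstream of it at position 101253902, and the annotated span of Nr4a3 begins inside its window, at position 48045078.
Nr4a1: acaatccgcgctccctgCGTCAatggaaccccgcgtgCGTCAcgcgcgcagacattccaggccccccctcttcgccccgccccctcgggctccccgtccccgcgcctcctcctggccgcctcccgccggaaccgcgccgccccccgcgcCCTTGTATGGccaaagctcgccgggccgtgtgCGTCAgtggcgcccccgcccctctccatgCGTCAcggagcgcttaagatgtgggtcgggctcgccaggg
Nr4a2: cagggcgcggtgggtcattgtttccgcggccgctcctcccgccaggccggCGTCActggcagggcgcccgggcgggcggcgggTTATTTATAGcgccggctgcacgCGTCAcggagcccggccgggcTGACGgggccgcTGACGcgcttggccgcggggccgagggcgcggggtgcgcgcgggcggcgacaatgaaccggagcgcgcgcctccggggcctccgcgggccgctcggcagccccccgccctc
Nr4a3: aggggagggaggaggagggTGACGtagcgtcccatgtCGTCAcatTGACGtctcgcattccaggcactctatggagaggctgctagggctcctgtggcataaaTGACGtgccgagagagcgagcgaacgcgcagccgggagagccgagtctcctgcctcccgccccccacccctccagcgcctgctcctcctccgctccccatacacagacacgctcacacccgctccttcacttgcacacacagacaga

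Each of the 3 promoters held 4 CRE half-sites. They began 233, 213, 69 and 40 bases before the start site in Nr4a1, 200, 144, 123 and 111 bases before it in Nr4a2, and 231, 213, 205 and 147 bases before it in Nr4a3. The search ran from 250 bases before to 50 after the start in the 3 members, of which the part before the start is printed, and in all 32851 RefSeq promoter windows. Of these windows, 20.8% held at least 1 such half-site on either strand and 0.231% held 4 or more. The MEF2 match of Nr4a2 began 167 bases before its start and a MEF2 match was found in 3.19% of all windows. The CArG-like element of Nr4a1 began 101 bases before its start, and 9.98% of all windows held one of that kind or an exact CArG box. No exact CArG box (1.63% of all windows), no full CRE (TGACGTCA, 1.79%) and no NBRE (AAAGGTCA, 1.51%) was found in the windows of the 3 members. Sequence outside these windows was not searched, whereas the paper looked for SRF sites over a wider region around its genes. These are matches of letters, and binding of any factor was not measured in the arrays.

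**Figure D1:**
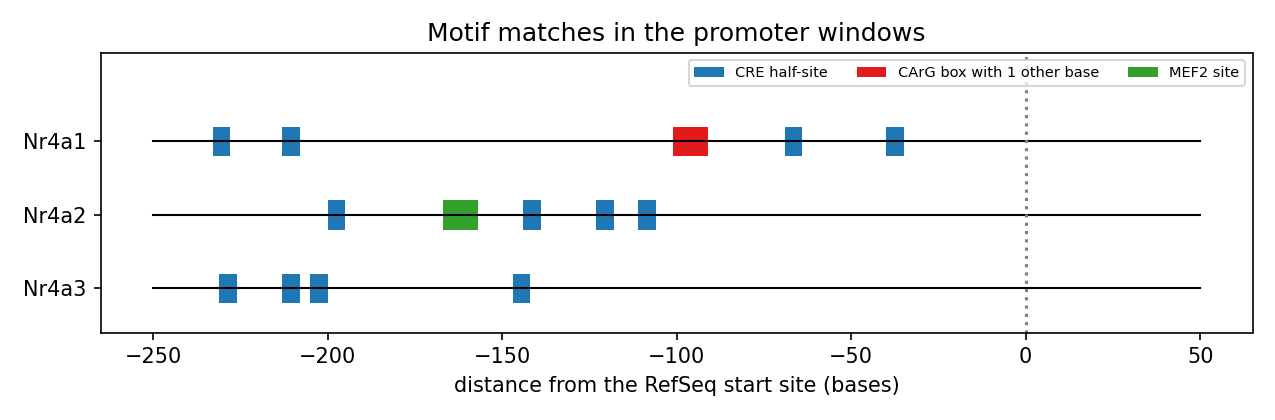
Positions of motif matches in the promoter windows of Nr4a1, Nr4a2 and Nr4a3. The horizontal axis is the distance from the RefSeq start site in bases, the black line is the window searched, and the coloured boxes are matches on either strand. Each gene has 4 CRE half-sites, Nr4a2 has the MEF2 match and Nr4a1 the CArG-like element.

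The measured value is a quantile-normalized log2 signal. It ran from 6.69 to 16.12 over all probes and arrays, with a median of 7.88, close to the lowest signal, and a probe was called dim when its mean was less than 0.5 above that median. The Nr4a2 probe (ILMN_1254547) was not dim, with a mean of 10.21. The main Nr4a3 probe (ILMN_1233670, mean 8.14), its other probes (ILMN_1257794, mean 8.10, and ILMN_2666945, mean 7.61) and the Nr4a1 probe (ILMN_2701881, mean 7.39) were dim, and differences of dim probes are understated on this scale. Srf itself (ILMN_2988299) had 12.28 to 12.62 in CTR saline, 11.73 to 12.22 in CTR KA, 11.20 to 11.58 in KO saline and 10.95 to 11.41 in KO KA mice, so that no KO array reached any CTR array. A second deposited table of the same arrays names 16 of its 22 columns in conflict with this one. Under its names the lowest CTR value of Srf was 11.11 and the highest KO value 12.49, and the values below come from the first table. The marker genes of dentate granule cells Prox1 (mean 12.57) and C1ql2 (14.91) were bright, while Calb1 (7.31) and Stxbp6 (7.44) were dim. CA1 markers such as Fibcd1 (12.37) and astrocyte markers such as Slc1a3 (15.47) were bright as well, and which cells gave these signals was not tested. In bulk RNA of dissected tissue, fewer cells that make a transcript and less of the transcript per cell cannot be told apart.

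Nr4a2 was the member with the largest change. In CTR mice given saline its log2 signal ran from 9.29 to 9.80, with a median of 9.49. In the 5 CTR mice given KA it was 11.89, 11.61, 12.34, 10.845 and 12.60. All 5 lay above every saline array, and the spread between them was wide, with an SD of 0.68 against 0.18 after saline. The mean rose from 9.52 to 11.86, a log2 difference of 2.34 (SE 0.21, 95% confidence interval 1.89 to 2.78) or 5.05-fold, with a limma adjusted p of 1.3e-08. This was the 201st largest difference among 46237 probes, and in CTR mice 8.88% of the 21946 genes were called higher (adjusted p under 0.05 and more than 1.5-fold). In 9.06% of all genes every CTR KA array lay above every CTR saline array.

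In KO mice Nr4a2 did not show such a difference. After saline its signal ran from 9.70 to 10.02, with a median of 9.79, and after KA it was 9.79, 9.71, 10.50, 9.86 and 9.44. The treatments overlapped, and replicate 3 alone lay above all KO saline arrays. Saline arrays averaged 9.81 ± 0.12 (SD, n = 6) and KA arrays 9.86 ± 0.39 (SD, n = 5), a log2 difference of 0.05 (SE 0.21, limma adjusted p = 0.94). Its 95% confidence interval was −0.39 to 0.50, of which the upper end lies under the lower end of the interval in CTR mice. In KO mice 4.2% of all genes were called higher.

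After KA, every KO array of Nr4a2 lay below every CTR array. The difference between the genotypes was −1.997 (SE 0.22), 3.99-fold lower in KO mice, with a limma adjusted p of 2.1e-06, the 50th largest of all probes. Of all genes, 3.74% were called lower in this comparison, and 3.42% had all KO KA arrays below all CTR KA arrays. The interaction of genotype and treatment, which tests whether the KA response differed between KO and CTR mice, was −2.28 (SE 0.30, limma adjusted p = 6.3e-05), the 28th largest of all probes. At an adjusted p under 0.01, 1.71% of all genes had an interaction below 0. With any single array left out, the CTR response lay between 2.15 and 2.59 and the interaction between −2.53 and −2.10, and both stayed called.

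After saline, Nr4a2 was 0.28 higher in KO than in CTR mice (SE 0.20, 95% confidence interval −0.14 to 0.71, limma adjusted p = 1). This SE rests on 1 spread shared by the 4 groups, whose SD was 0.68 in CTR KA, 0.18 in CTR saline and 0.12 in KO saline arrays. With the saline groups fitted alone the SE of this difference was 0.085, and it was still not called. The groups overlapped through 1 CTR array, replicate 2 at 9.80, and the other 5 CTR arrays lay below all 6 KO arrays. In this comparison 0.00456% of the genes, Srf alone, was called.

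**Figure D2:**
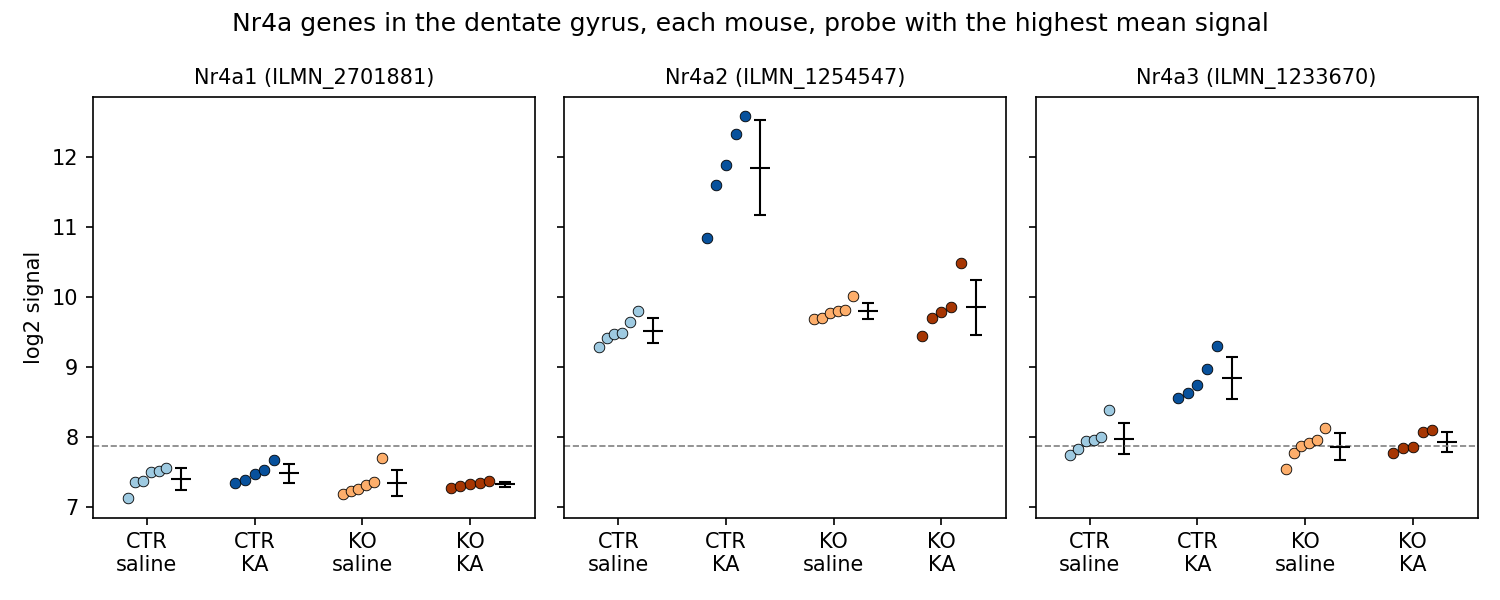
Log2 signal of Nr4a1, Nr4a2 and Nr4a3 in each mouse, for the probe with the highest mean. Points are single arrays in the 4 groups, the bars beside them are the mean and SD, and the dashed line is the median of all signals (7.88). The 5 CTR KA mice sit above all others for Nr4a2 and Nr4a3, and all groups of Nr4a1 lie under the dashed line.

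Nr4a3 (Nor-1), a receptor that binds the same NBRE element, was likewise highest in CTR KA mice, on a dimmer probe. On ILMN_1233670 the CTR saline arrays ran from 7.75 to 8.39, with a median of 7.96. The CTR KA arrays had 8.98, 8.57, 8.75, 8.63 and 9.31. All of these lay above the saline arrays, of which replicate 3 at 8.39 was the nearest. The mean rose from 7.98 ± 0.22 (SD, n = 6) to 8.85 ± 0.30 (SD, n = 5), a log2 difference of 0.86 (SE 0.13, limma adjusted p = 1.2e-05) or 1.82-fold.

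In KO mice Nr4a3 stayed within its saline range. The KO saline arrays ran from 7.54 to 8.13, with a median of 7.90, and the KO KA arrays had 8.10, 7.86, 7.78, 8.08 and 7.84. The log2 difference was 0.06 (SE 0.13, 95% confidence interval −0.20 to 0.33, limma adjusted p = 0.86). After KA all KO arrays lay below all CTR arrays, with a difference of −0.91 (SE 0.13, limma adjusted p = 5.1e-05) or 1.89-fold lower. After saline the difference between the genotypes was −0.11 (SE 0.12, limma adjusted p = 1). The interaction was −0.80 (SE 0.18) with a limma adjusted p of 0.0098, just under the threshold of 0.01. Leaving out single arrays moved that p between 0.0034 and 0.023, and the call was lost in 18 of 22 such fits. It was kept without CTR saline replicate 3, CTR KA replicate 2, CTR KA replicate 4 or KO saline replicate 3.

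The other probes of Nr4a3 are annotated to the same transcript and were also highest in CTR KA mice. On ILMN_1257794 the CTR KA arrays had 9.31, 8.77, 8.79, 8.33 and 9.34, all above the CTR saline arrays (7.59 to 8.02), the KO saline arrays (7.735 to 7.998) and the KO KA arrays (7.84 to 8.02). Its CTR response was 1.08 (SE 0.13, 2.12-fold, limma adjusted p = 6.5e-07) and its KO response 0.10 (limma adjusted p = 0.75). The genotypes differed by −0.97 after KA (limma adjusted p = 3e-05), and the interaction was −0.98 (SE 0.18, limma adjusted p = 0.002). On ILMN_2666945, whose mean lay below the median of all signals, the CTR response was 0.36 (SE 0.066, limma adjusted p = 0.00017). With a change of 1.28-fold it missed the fold threshold, although the CTR KA arrays (7.80 to 7.98) did not overlap with the CTR saline arrays (7.44 to 7.69). Its interaction was −0.24 (limma adjusted p = 0.18). The size of the Nr4a3 response thus depended on the probe, from 1.28-fold to 2.12-fold.

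**Figure D3:**
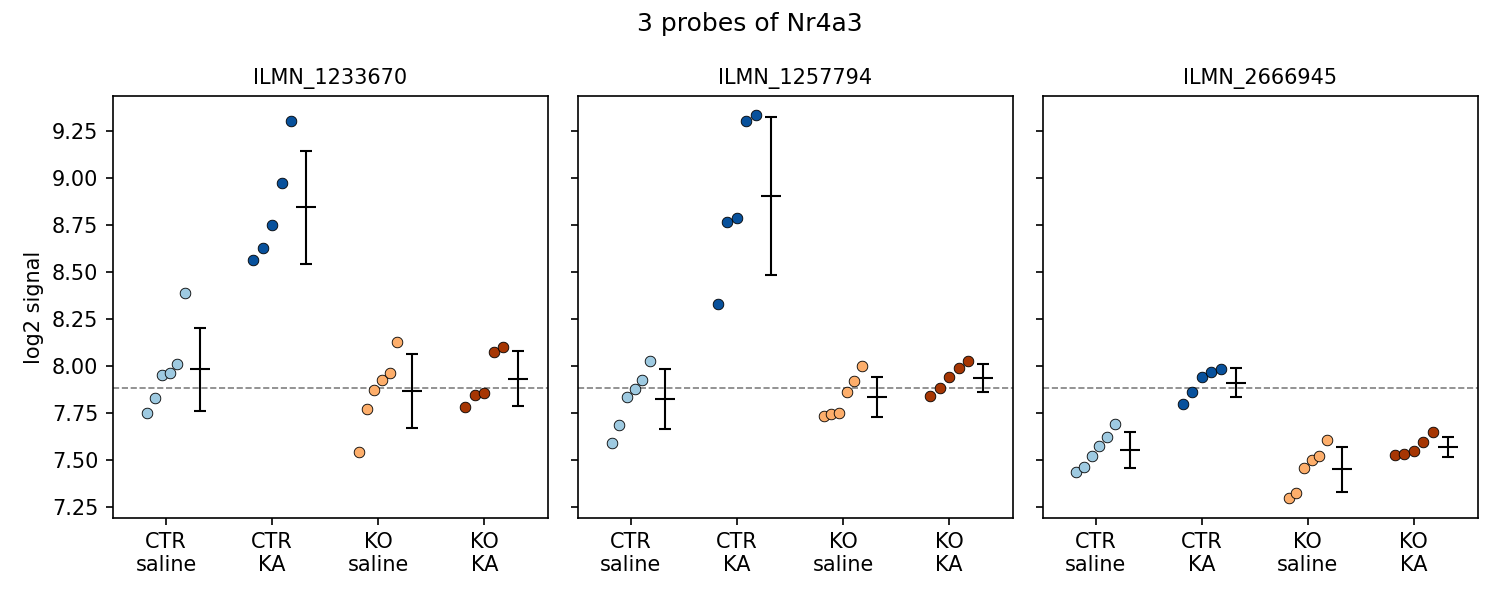
Log2 signal of the 3 Nr4a3 probes in each mouse. Points are single arrays, bars are the mean and SD, and the dashed line is the median of all signals (7.88). The CTR KA mice are the highest group on each probe, by 1.82-fold, 2.12-fold and 1.28-fold over CTR saline.

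Nr4a1 (Nur77), a classic immediate-early gene, was not called in any comparison. Its single probe lay at the 15.9th percentile of all probes on average, under the median of all signals in every array. The group means were 7.41 ± 0.16 (SD, n = 6) in CTR saline, 7.48 ± 0.13 (SD, n = 5) in CTR KA, 7.34 ± 0.18 (SD, n = 6) in KO saline and 7.33 ± 0.036 (SD, n = 5) in KO KA mice. All groups overlapped with one another, and KO saline replicate 6 (7.70) was the brightest array. The KA response was 0.08 in CTR mice (SE 0.089, 95% confidence interval −0.11 to 0.26, limma adjusted p = 0.65) and −0.02 in KO mice (limma adjusted p = 0.95). The interaction was −0.10 (SE 0.13, limma adjusted p = 0.81). No change was detected on this probe. Differences of so dim a probe are understated, and why none was seen at 6 h was not tested.

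Of the 3 genes, 2 were called higher after KA in CTR mice (8.88% of all genes) and none in KO mice (4.2%). Both of those 2 were called lower in KO than in CTR mice after KA (3.74% of all genes). Both had a called interaction below 0 (1.71% of all genes), but that of Nr4a3 was lost in 18 of 22 fits with 1 array left out. The share of the CTR response that was left in KO mice, on the log2 scale, was 0.0233 (SE 0.092) for Nr4a2 and 0.0741 (SE 0.148) for Nr4a3. Each SE was larger than its share, so the order of the 2 genes is uncertain. The median over the 1948 genes that rose in CTR mice was 0.482. A lower share than that of Nr4a2 was found for 6.78% of these genes, and a lower share than that of Nr4a3 for 8.62%. The genes entered this count by their CTR response, and the shares are a description with no test.

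**Figure D4:**
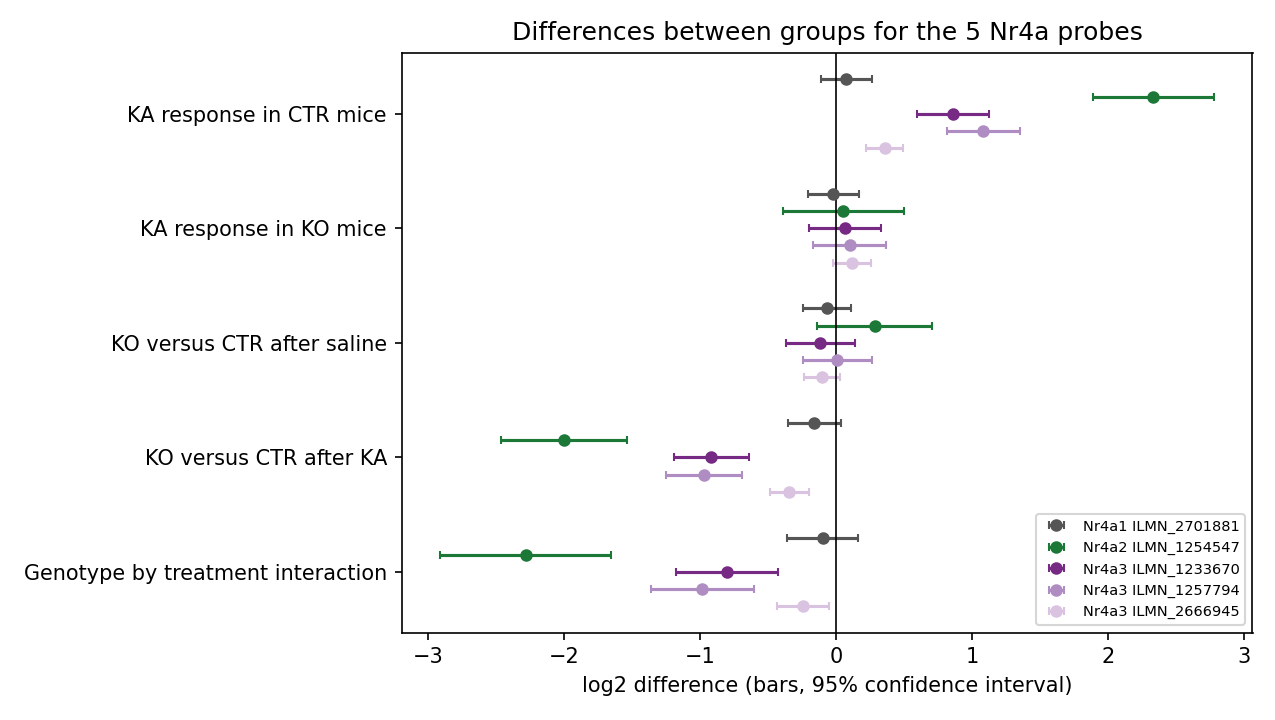
Log2 differences of the 5 Nr4a probes in the 5 comparisons. Points are limma estimates and bars are 95% confidence intervals, with 0 drawn as a vertical line. The Nr4a2 response is 2.34 in CTR mice and 0.05 in KO mice.

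The genes whose signal followed Nr4a2 most closely over the 22 arrays, by Pearson correlation among 21945 other genes, were Ccdc144b (r = 0.967), Gramd1b (0.963), Egr4 (0.957), Ss18l2 (0.950) and Rlim (0.948). Gramd1b carries cholesterol between the plasma membrane and the endoplasmic reticulum, Egr4 is an immediate-early zinc finger factor and Rlim a ubiquitin ligase. Those closest to Nr4a3 were Pcdh10 (r = 0.926), a protocadherin, 6330416L11Rik (0.906), Ppp1r15a (0.906), which directs a phosphatase to the translation factor eIF2alpha, Rasl11a (0.905), a small GTPase, and Onecut2 (0.901), a transcription factor. Each of these 10 genes had a KA response in KO mice smaller than in CTR mice. For Egr4 the log2 differences were 2.79 in CTR and 0.54 in KO mice, and for Pcdh10 1.05 and 0.03. A smaller KO response follows from choosing genes by their likeness to Nr4a2 or Nr4a3, so it is no separate result. Over all genes that rose in CTR mice, the median share of the response left in KO mice was 0.482. Nr4a2 and Nr4a3 correlated with r = 0.858, which placed Nr4a3 at rank 220 for Nr4a2 and Nr4a2 at rank 51 for Nr4a3. Nr4a1 ranked 4204th and 2292nd. The arrays fall into 4 groups with unequal means, so these correlations follow the group differences and describe no relation within a group.

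The other nuclear receptors were counted beside all genes. Of 45 receptors listed, 42 were measured and 24 of them were dim. In CTR mice after KA, 3 rose and 2 fell while 37 were not called (median log2 difference −0.06, and −0.01 over all genes), where 17.4% of all genes were called in either direction. The receptors that rose were Pparg, the fat and lipid receptor (0.82, adjusted p = 1.2e-05), Rorb (0.78, adjusted p = 0.00098) and Nr6a1 (0.68, adjusted p = 0.0023). The 2 that fell were Nr1d2 (REV-ERB beta, −1.52, adjusted p = 0.00013), a repressor of the clock, and Esrrg (−0.69, adjusted p = 0.00086). Leaving out 1 array moved the count of called receptors from 5 to 8 without CTR KA replicate 1, and to 3 without CTR KA replicate 3. In KO mice 1 rose, again Pparg (0.86), and 5 fell, where 8.44% of all genes were called and 4.24% called lower. The interaction of Pparg was 0.04 (SE 0.17, adjusted p = 0.96).

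After KA, 3 of the 42 receptors were lower in KO than in CTR mice (Rorb −0.83, Nr6a1 −0.76 and Thra, a thyroid hormone receptor, −0.69) and none was higher. Of all genes 6.36% were called there. In KO mice the KA responses of Rorb and Nr6a1 were −0.09 and 0.02 (adjusted p = 0.85 and 0.97), but no receptor outside the Nr4a group had a called interaction (1 with array weights or without CTR KA replicate 1; Rorb −0.86, adjusted p = 0.037; Nr6a1 −0.66, adjusted p = 0.12). Over all genes 2.93% had one.

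**Figure D5:**
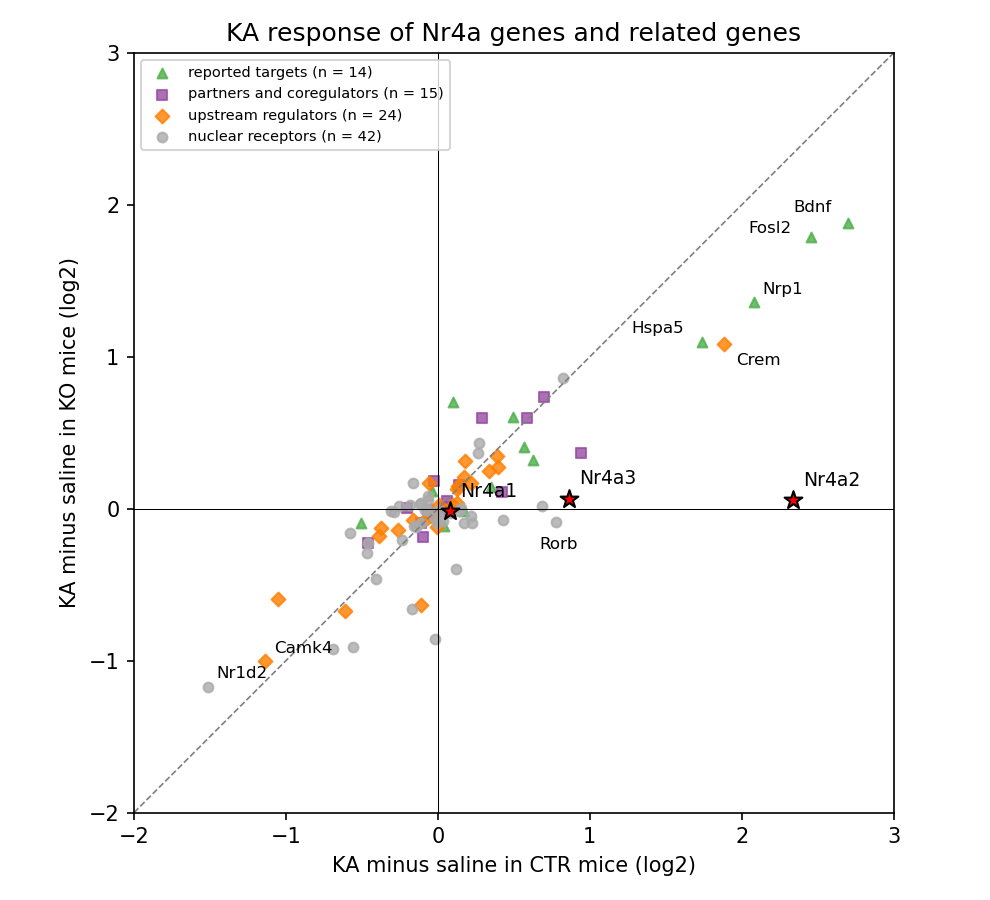
KA response in CTR mice (horizontal axis) against that in KO mice (vertical axis), both log2 differences of KA minus saline, for the 3 Nr4a genes (stars), other nuclear receptors, upstream regulators, partners and coregulators, and reported targets. The dashed line marks equal responses, and Nr4a2 (2.34 and 0.05) lies far below it while Bdnf (2.70 and 1.88) lies nearer.

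The retinoid X receptors, the partners of Nr4a1 and Nr4a2 in heterodimers, were not called. Rxrb, the bright member (mean 12.20), had a log2 difference of −0.46 in CTR mice (SE 0.15, adjusted p = 0.029), under the fold threshold. Rxra and Rxrg were dim and had −0.06 and −0.11 (adjusted p = 0.70 and 0.50). Of 15 measured partners and coregulators (of 17 listed), 3 rose in CTR mice, where 8.88% of all genes did, and none fell (median 0.04, and −0.01 over all genes). They were Pias4, a SUMO ligase (0.95, adjusted p = 1.8e-05), Kdm1a, the histone demethylase LSD1 (0.70, adjusted p = 1.5e-05), and Rcor1, the corepressor CoREST that binds it (0.59, adjusted p = 0.0021). In KO mice Kdm1a (0.73), Rcor1 (0.59) and Fhl2 (0.60), a LIM-domain cofactor, rose, where 4.2% of all genes did, and Pias4 had 0.37 (adjusted p = 0.11). The Kdm1a and Rcor1 responses had interactions of 0.03 and 0.01, with standard errors of 0.15 and 0.20. None of this list was called between the genotypes.

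Among 24 measured upstream regulators (of 26 listed), Crem alone rose in CTR mice (1.88, SE 0.20, adjusted p = 9.1e-08). Crem makes both activators and, from an internal promoter, the repressor ICER, and the probe is given by gene only. It rose in KO mice as well (1.08, adjusted p = 0.00042) and its interaction of −0.80 was not called (SE 0.28, adjusted p = 0.12). Creb1 had −0.37 in CTR mice (adjusted p = 0.056) and −0.12 in KO mice (adjusted p = 0.71). The CREB coactivator Crtc1 (−1.05, adjusted p = 4.5e-07), the CREB kinase Camk4 (−1.14, adjusted p = 3.6e-05) and the MEF2 repressor Hdac7 (−0.61, adjusted p = 0.0044) fell in CTR mice, so that 4 of 24 were called where 17.4% of all genes were. In KO mice these 3 fell by 0.59, 1.00 and 0.67, and Mef2c, a neuronal MEF2 factor, by 0.63 (adjusted p = 0.03). Mef2c had −0.11 in CTR mice (adjusted p = 0.80), and its interaction of −0.52 was not called (adjusted p = 0.40). After KA, Crem (−0.75) and Mef2c (−0.66) were lower in KO than in CTR mice, where 3.74% of all genes were called lower. Srf (−0.83), the gene deleted in KO mice, was lower by design. The median log2 difference of this list in CTR mice was 0.00, against −0.01 over all genes.

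Of 15 genes reported elsewhere as NR4A targets, 14 were measured and 7 were dim. In CTR mice 4 rose, where 8.88% of all genes did, and none fell (median 0.42, and −0.01 over all genes): Bdnf, a neurotrophin (2.70, SE 0.16), Fosl2, an AP-1 subunit (2.46, SE 0.12), Nrp1, a semaphorin receptor (2.08, SE 0.15), and Hspa5, a chaperone of the endoplasmic reticulum (1.74, SE 0.25). The adjusted p was at most 7.1e-06. In KO mice 6 of the 14 rose, where 4.2% of all genes did. The same 4 rose there by 1.88, 1.79, 1.36 and 1.10 on the log2 scale (adjusted p at most 0.0032). The others were Ret, a neurotrophic factor receptor (0.60), and Slc6a3, the dopamine transporter (0.70), both on dim probes. After KA, Bdnf (−1.09, adjusted p = 6.8e-05), Hspa5 (−0.81, adjusted p = 0.047) and Nrp1 (−0.80, adjusted p = 9e-04) were lower in KO than in CTR mice, where 3.74% of all genes were called lower. None of the list had an interaction under the adjusted p of 0.01, and those of Bdnf (−0.81, adjusted p = 0.035), Nrp1 (−0.72, adjusted p = 0.045) and Fosl2 (−0.66, adjusted p = 0.021) lay between 0.01 and 0.05. Without KO KA replicate 3, 1 of the list was called. Genes of the dopamine pathway that Nr4a2 controls in the midbrain, Th (mean 7.43) and Slc18a2 (7.98), were dim and not called in CTR mice (0.04 and 0.35), and Ddc, which was not dim (9.53), had −0.51 (adjusted p = 0.074).

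Some marker genes of other cell types were called between the same groups. After KA, 17.4% of all genes were called in CTR mice and 8.44% in KO mice. The mean log2 signal of 6 GABAergic interneuron markers was 12.02 to 12.56 in CTR KA arrays, 11.74 to 12.03 in CTR saline 11.99 to 12.19 in KO saline and 12.04 to 12.27 in KO KA arrays, and 2 of 6, Gad1 and Sst, rose in CTR mice. Of 5 astrocyte markers the mean was 13.59 to 13.92 in CTR KA and 13.42 to 13.58 in KO KA arrays, with 1 of 5 called higher after KA in each genotype. Of 5 microglial markers 3 fell in CTR mice, and the mean was 9.73 to 10.33 in CTR KA and 10.03 to 10.51 in KO KA arrays. Of 4 claustrum and deep cortex markers, regions where Nr4a2 is known to be high, 1, Ccn2, rose in each genotype (3.45 in CTR and 1.725 in KO mice). Their mean was 8.395 to 9.275 in CTR saline and 9.38 to 10.09 in CTR KA arrays. In KO mice it was 8.54 to 9.33 in saline and 9.21 to 9.635 in KA arrays. Gnb4, Nxph4 and Cplx3 had KA responses of −0.16, 0.10 and 0.04 in CTR mice and −0.18, −0.04 and −0.04 in KO mice. None of these was called, and Nxph4 and Cplx3 were dim, so the higher mean after KA came from Ccn2. Of 4 CA1 markers 1, Fibcd1, was higher in KO than in CTR mice after KA, and their mean was 10.50 to 11.50 in CTR KA and 10.76 to 11.99 in KO KA arrays. The mean of the 7 measured granule cell markers ranged from 9.45 to 10.19 in CTR KA and 9.84 to 10.28 in KO KA arrays, and 3 rose and 2 fell in CTR mice. After KA, Dsp (2.41) and C1ql2 (1.07) were higher and Tdo2 (−1.47) lower in KO than in CTR mice, and all 3 had a called interaction (2.94, 1.19 and −1.43). Between the genotypes after KA, where 6.36% of all genes were called, no interneuron, astrocyte or claustrum marker was called, and 1 microglial marker was higher. Gja1 (−0.44, limma adjusted p = 0.0012), Gad1 (−0.44, limma adjusted p = 0.023) and Sst (−0.50, limma adjusted p = 0.024) were lower but missed the fold threshold. Of 5 CA3 and mossy cell markers 1, Csf2rb2 on a dim probe, was called lower (−0.70, limma adjusted p = 0.00097). The part of such differences in the Nr4a results was not tested.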

How the data were processed

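Total RNA of 22 dentate gyri was profiled on Illumina MouseWG-6 v2.0 arrays. The authors subtracted background, quantile normalized with the BeadArray package and deposited log2 signals, which were used here unscaled, keyed by sample. The deposited linear intensity table, called non-normalized, has equal quantiles in all arrays and conflicting column names, and served for alternatives only. No detection p was used, so no probe was filtered. With R 4.3.3 and limma 3.58.1, 4 group means were fitted over all 22 arrays (18 residual degrees of freedom) with lmFit and eBayes, and p-values were adjusted by Benjamini-Hochberg over 46237 probes. Calls needed an adjusted p under 0.05 and more than 1.5-fold, or an adjusted p under 0.01 for the interaction. Probes were named by the platform annotation (35784 with 1 symbol, 10453 with none), and symbols were updated through RefSeq. The members, the gene lists and the tests were chosen with earlier results of these data known. From each list, up to 4 genes with the largest called differences in CTR mice were named, with the RXR genes, Srf, Crem and Creb1; further genes were named after their values were seen. The fit was also run on simulated data with independent probes and, for each probe, the same spread in all groups. The measured groups can differ in spread, as those of Nr4a2 did, so that run does not cover this case. Listed genes without a matched probe were not analysed here. The number of arrays limits precision, and p-values measure the spread between single mice.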

Additional observations from a re-analysis of the deposited data

Results flagged for a closer look

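The KA response of Nr4a2 differed between CTR and KO mice by an interaction term of −2.28, and that of Nr4a3 by −0.801 on probe ILMN_1233670 and −0.981 on probe ILMN_1257794, with limma adjusted p of 6.3e-05, 0.0098 and 0.002. For Nr4a1, KO saline replicate 6 stood apart from the other 5 arrays of its group (7.70 against at most 7.36), with a gap of 0.67 of the whole range of the group. It was the only outlying array among 20 combinations of probe and group checked, and the limit used, Dixon's 95% critical value, is passed by chance in about 1 in 20 groups.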

How the results depend on the processing

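The calls of Nr4a2 and Nr4a3 in CTR mice after KA and between the genotypes after KA held under the unmoderated two-way fit, Tukey's test as in the methods, array weights, a fit on the compared groups alone, the brighter probes alone (Nr4a1 has no value there), a variance trend, the replicate block, and normexp on the main table, which was added after seeing the data. The interaction of Nr4a2 was called in each of these that gives one. The interaction of Nr4a3 was not called in the unmoderated fit (−0.80, adjusted p = 0.024), with array weights (−0.68, adjusted p = 0.025), with normexp (−0.97, adjusted p = 0.019) or with the replicate block (−0.80, adjusted p = 0.011), and it ranged from −0.88 to −0.69 when single arrays were left out. The replicate numbers were not shown to pair the samples: deviations of same-numbered arrays correlated with a median r of 0.152 (−0.317 to 0.427, 31 pairs), against −0.00937 for other pairs.

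The KO response of Nr4a1 changed sign with array weights (0.011) and the replicate block (0.029). With single arrays left out, the KO responses ranged from −0.048 to 0.053 for Nr4a1, from −0.11 to 0.16 for Nr4a2 (below 0 without KO KA replicate 3) and from −6e-04 to 0.12 for Nr4a3. Another Nr4a3 probe, ILMN_1257794, gave 0.011 between the genotypes after saline, and ILMN_2666945 gave 0.36 in CTR mice, −0.34 between the genotypes after KA and −0.24 for the interaction, none of them called.

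Under the column names of the second table, no member was called. Each array of the main table had a match there at r of 0.99965 or more, but 16 of 22 names conflict. The values below thus come mainly from another grouping of the same arrays. Under that grouping Srf did not separate the genotypes (lowest CTR value 11.11, highest KO value 12.49). With normexp, and then without background correction, the CTR response was 0.87 and 0.82 for Nr4a2 and 0.32 and 0.23 for Nr4a3, and the KO response of Nr4a1 was 0.43 and 0.24. After saline the genotypes differed by −0.33 and −0.31 for Nr4a2. After KA they differed by 0.16 and 0.096 for Nr4a1, −0.65 and −0.61 for Nr4a2, and −0.13 and −0.087 for Nr4a3. The interactions were 0.34 and 0.19 for Nr4a1, −0.32 and −0.31 for Nr4a2, and 0.18 and 0.13 for Nr4a3, and the shares left in KO mice with normexp were 0.626 for Nr4a2 and 1.56 for Nr4a3. Under these names 3 probes were called higher in CTR mice after KA, where the main table gives 3407. The 4 lists had no called member in CTR mice there.

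Interaction calls over all probes, 357 higher and 609 lower, became 237 and 376 in the unmoderated fit, and 602 and 974 with array weights. The count of higher ones was 541 without CTR KA replicate 5. Between the genotypes after KA, 3 upstream regulators were called, among them Srf, the deleted gene. The count was 1 without CTR KA replicate 3 or replicate 5, or with the compared groups alone, where no nuclear receptor was called. The 3 partners called in KO mice became 1 with the replicate block and when KO KA replicate 2 or KO saline replicate 5 or replicate 6 was left out, and the 5 upstream regulators became 3 without KO KA replicate 3 or KO saline replicate 6. A block for the BeadChip was not run, since the names of the columns give no chip. The dim signal limits Nr4a1 and Nr4a3.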
